A study of Mus musculus with 2 samples.

Results

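Chromatin remodellers are the machines that use ATP to slide, evict or exchange nucleosomes. The transcripts of these machines were followed in an RNA immunoprecipitation of FMRP from mouse testis. Members were chosen by gene symbol, as the catalytic ATPases of the SNF2 superfamily, the subunits that travel with them, and the histone chaperones and similarly named genes that the same symbols bring in. Of the 4788 genes in the deposited table, 63 were members. The reference annotation holds 101 protein-coding genes with such symbols, so 38 were not in the table and their levels were not analysed here.

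The study asked which mRNAs FMRP carries in the testis, in connection with the kinesin KIF6 and the sperm flagellum. Testes of adult wild-type mice were lysed, a part of the lysate was kept as input, and the rest was precipitated with an anti-FMRP antibody. There was 1 input library of 30849871 reads and 1 FMRP RIP library of 36506932 reads, neither of them with a treatment or a mutation. The number of animals behind each library is not given in the sources used here, no IgG library was used here, and a whole testis mixes germ cells of all stages with somatic cells.

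FMRP, encoded by the X-linked gene *Fmr1*, is an RNA-binding protein that associates with polyribosomes and represses translation, and in the brain its known targets include many long mRNAs of chromatin regulators. Remodelling ATPases share a SNF2-type motor and are sorted into families by the domains around it. BAF and PBAF carry SMARCA4 (BRG1) or SMARCA2 (BRM), the ISWI complexes carry SMARCA5 or SMARCA1, the CHD family uses chromodomains, and INO80, SRCAP and TIP60/p400 belong to the INO80/SWR group. In male germ cells these enzymes act in meiosis and in the exchange of histones for protamines during spermiogenesis.

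The table lists only genes the authors had called higher after precipitation, so the direction of every listed gene was fixed before any value was compared here, and with 1 library per group no difference has a replicate check or a test. The input is the level before precipitation and the FMRP RIP the level after it. Levels are in CPM, the reads on a gene scaled to a common library size, and are not corrected for transcript length, so levels are compared between libraries and not between genes. Below, a ratio is the CPM in the FMRP RIP divided by the CPM in the input, and its 95% interval is an exact Clopper-Pearson one on read numbers that covers counting error only, as PCR duplicates are not independent molecules. A log2 fold change is the log2 of the same ratio after adding 1 CPM to both levels, which understates the change of genes with low levels. Reads are given per whole gene, so exons, introns and UTRs are not resolved. Reads on listed genes made up 14.2% of the input and 55.2% of the FMRP RIP, so all ratios are relative to the library totals.

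Of testis cell markers, the spermatid gene *Akap4* had 752.4 CPM before and 3118 CPM after precipitation, and the meiotic genes *Sycp1* and *Sycp2* were at 10.5 and 8.88 CPM before and at 23.8 and 118.3 CPM after it. These were 2 of 10 spermatocyte and 1 of 10 spermatid markers. Of the spermatogonium markers, 2 of 8 were listed, *Gfra1* with a log2 fold change of 1.36 and *Sall4* with 1.02, and of the 15 markers of Sertoli and Leydig cells, 0 were listed. A marker outside the table has no value here, so the cell types cannot be weighed from these lists, and in whole tissue fewer cells of a type and less RNA per cell cannot be told apart. Their part in the results was not tested.

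Genes of the remodelling machinery were listed often, above all the ATPases. Of the 101 reference genes, 63 (62.4%) were listed, beside 21.3% of all protein-coding genes of the reference. Among the ATPases 22 of 25 were listed (88.0%), among the accessory subunits 25 of 44 (56.8%), among the histone chaperones and elongation factors 7 of 15 (46.7%), and among the other symbol matches 9 of 17 (52.9%). All 10 genes with *Chd* symbols were listed, as were all 3 ATPases of the INO80/SWR group. So were both ATPases of BAF and PBAF, and all 7 large partners of the ISWI motors. The ATPases outside the table were *Smarca1*, *Hells* and *Ercc6l*.

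**Figure D1:**
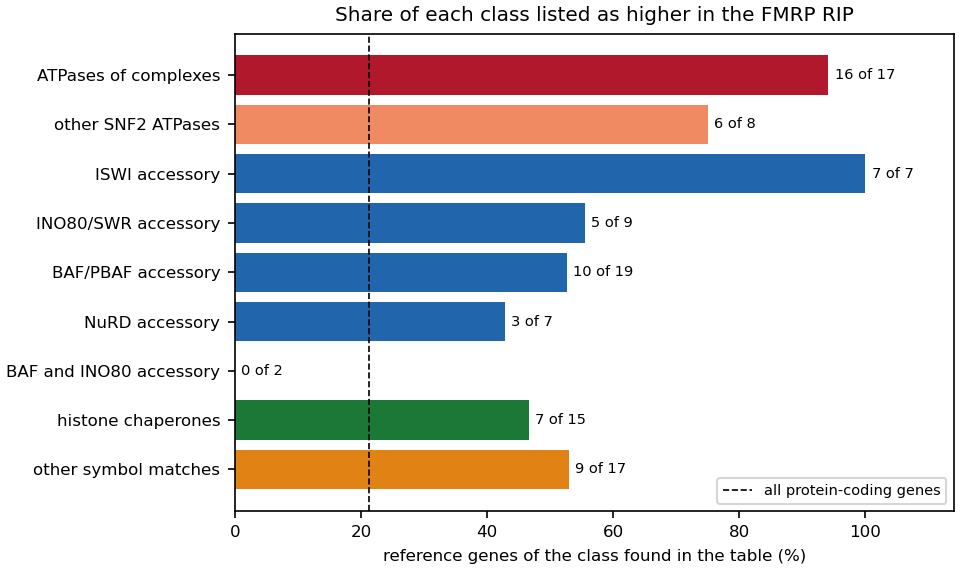
Bars give the share of the reference genes of each class that were in the table (%), with the numbers beside them, and the dashed line marks the 21.3% of all protein-coding genes. The ISWI accessory subunits (7 of 7) and the ATPases of complexes (16 of 17) lie highest, while the NuRD accessory subunits (3 of 7) and the actin-related subunits shared by BAF and INO80 (0 of 2) lie lowest.

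Several subunits of the same complexes were outside the table. From BAF and PBAF these were the core subunit *Smarcb1*, the 3 *Smarcd* genes, the 3 *Dpf* genes, *Bcl7a* and *Bcl7c*, beside the actin-related *Actl6a* and *Actl6b*. From NuRD they were *Rbbp4*, *Rbbp7*, *Mta2* and *Mta3*, and from the INO80/SWR group *Actr5*, *Actr6*, *Ino80b* and *Ino80e*. Of the chaperone class, *Chaf1b*, *Daxx*, *Nap1l2*, *Nap1l3*, *Nap1l4*, *Nap1l5*, *Supt4a* and *Supt4b* were not listed. The other symbols without a row were *Supt7l*, *Rbbp5*, *Arid3c*, *Arid5a*, *Actl7a*, *Actl7b*, *Actl9* and *Actl10*.

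Gene length moved with this split. The genomic span, which covers introns and is not the length of the mRNA, had a median of 73.5 kb for the listed members and 14.3 kb for those outside the table. Over all protein-coding genes the medians were 48.7 kb for listed and 12.5 kb for other genes. Of members spanning 50 to 100 kb, 20 of 21 were listed (95.2%), where 43.3% of all reference genes of that span were. For spans of 100 kb and over the numbers were 20 of 22 (90.9%) and 49.2%, and for 10 to 50 kb 21 of 43 (48.8%) and 22.1%. Below 10 kb, 2 of 15 members (13.3%) and 4.91% of all reference genes were listed, these members being *Ssrp1* and *Actl11*. The exceptions among the long genes were *Smarca1*, *Mta3* and *Dpf3*. Among the 63 listed members, Spearman's rho between span and log2 fold change was 0.17, and over all 4788 listed genes it was 0.16, as a description of genes that share the same 2 libraries. Levels of expression in testis could also differ between listed and other members, and between members and all reference genes. Their part was not tested.

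**Figure D2:**
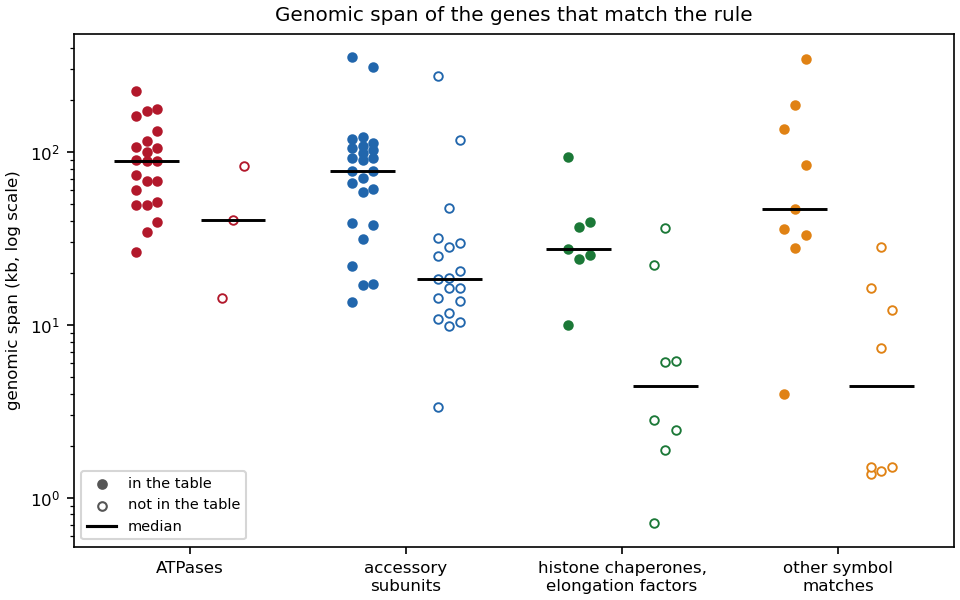
Each point is a reference gene that matches the symbols, placed by its genomic span in kb on a log scale, filled where it was in the table and open where it was not, with black lines at the medians. In all 4 classes the listed genes have the longer median span, 88.1 kb against 40.2 kb for ATPases and 77.8 kb against 18.4 kb for accessory subunits.

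Once listed, members differed widely in their recovery. Reads on the 63 members made up 0.219% of the input and 1.08% of the FMRP RIP, a ratio of 4.92. Their median log2 fold change was 1.89, beside 1.35 for all listed genes, and single values ran from 0.63 for *Atrx* to 4.87 for *Bptf*. A log2 fold change above 1 was found for 53 of the 63 (84.1%), beside 70.1% of all listed genes, and 29 (46.0%) lay above the upper quartile of all listed genes, where 25.0% lie by definition. All 63 reached a fold change of 1.5, which 97.3% of listed genes did and which the authors' selection had largely set. The interval of the ratio lay wholly above 2 for 51 members, beside 67.1% of all listed genes, wholly below 2 for 5, and included 2 for 7.

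**Figure D3:**
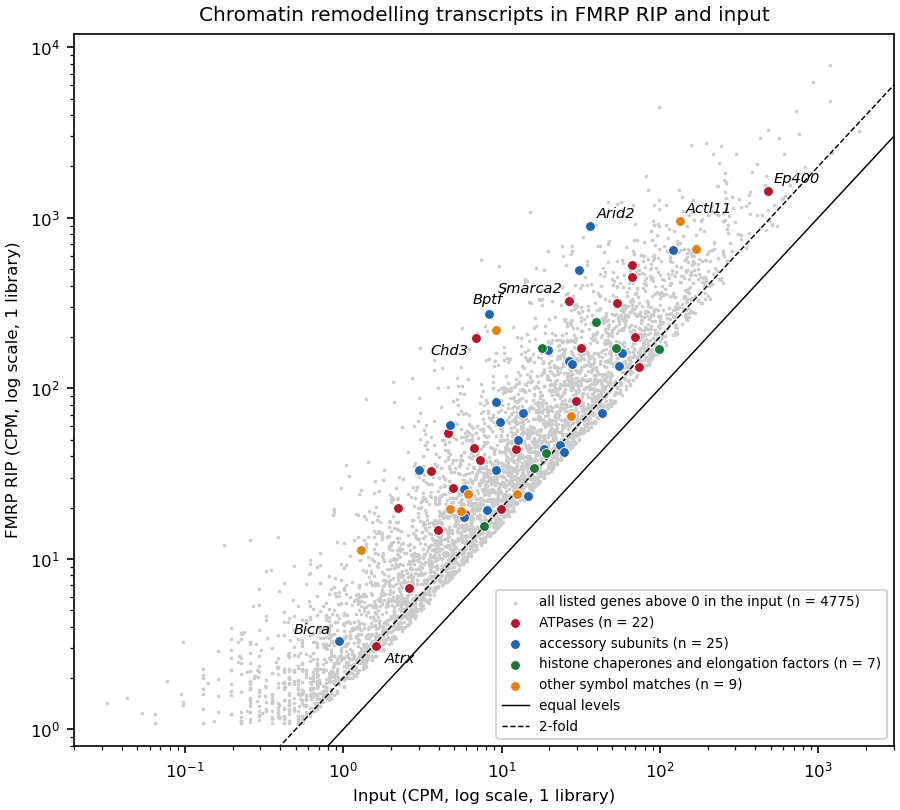
Each point is a gene placed by its CPM before (input) and after (FMRP RIP) precipitation, both on log scales and from 1 library each, with all listed genes above 0 in the input in grey and the members coloured by role. The solid line marks equal levels and the dashed line a ratio of 2. *Atrx*, at 1.62 and 3.07 CPM, lies just under the dashed line, and *Bptf*, *Chd3* and *Arid2* lie far above it.

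ATPases and accessory subunits overlapped over almost their whole ranges. The 22 ATPases had a median log2 fold change of 2.20, from 0.63 to 4.65, and the 25 accessory subunits one of 1.99, from 0.64 to 4.87, a difference of 0.21. Of the accessory subunits, 12 lay above the median ATPase and 13 did not. The difference is small against these ranges and moved with the settings. It was 0.07 when *Bicra*, the only member under 1 CPM in the input, was left out by a minimum of 1 CPM, and 0.08 with a pseudocount of 5 CPM. Above a log2 fold change of 1 were 19 ATPases (86.4%) and 21 accessory subunits (84.0%), and 12 of each class lay in the upper quartile. In summed reads the order turned, with a ratio of 4.29 for ATPases and 6.33 for accessory subunits. *Ep400* alone took 49.4% of the ATPase reads in the input, and without it the 21 other ATPases had a summed ratio of 5.55.

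The larger contrast lay within the ATPases. The 16 listed motors of multi-subunit complexes and of the CHD family had a median log2 fold change of 2.54. Of these, 11 lay in the upper quartile of all listed genes. They include *Chd1l*, at 0.85, which was placed with the CHD family by its symbol although it acts in repair. The 6 listed ATPases of repair, replication and transcription outside these families (*Ercc6l2*, *Btaf1*, *Ercc6*, *Smarcad1*, *Smarcal1* and *Atrx*) had a median of 1.30, with 1 in the upper quartile. Counted against the motors alone, the accessory subunits lay 0.55 lower, more than 1.5 times the difference over all ATPases. Of 7 SNF2-family ATPases that the symbols do not cover, 6 were listed (85.7%), beside 21.3% of all protein-coding genes of the reference. Their median was 0.88, from 0.62 for *Hltf* to 2.64 for *Rad54l2*, which lay above the median of the motors. Above 1 were 2 of the 6 (33.3%), beside 70.1% of all listed genes. The classes and this list were chosen with earlier results of these data known, so the list is no independent check.

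**Figure D4:**
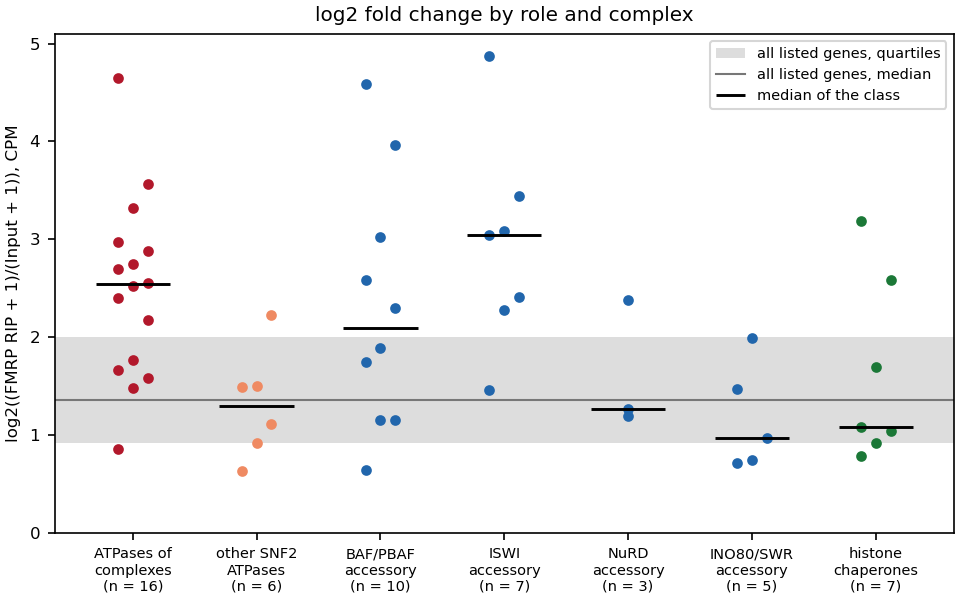
Points are single genes by role and complex, black lines are the medians of each class, and the vertical axis is the log2 fold change with a pseudocount of 1 CPM. The grey band and line are the quartiles and median (1.35) of all 4788 listed genes. ISWI accessory subunits (median 3.04) and ATPases of complexes (2.54) lie above the band, and INO80/SWR accessory subunits (0.97) and the chaperone class (1.08) lie low in it.

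The CHD family held the ATPase with the highest recovery. *Chd3* (ENSMUSG00000018474, GRCm38 chromosome 11 from 69343273 to 69369406), a motor of the NuRD deacetylase complex, had 6.87 CPM before and 196.5 CPM after precipitation. Its ratio was 28.6 (95% interval 24.9 to 32.9), and it ranked 26 by log2 fold change among the 4788 listed genes. The other NuRD motors were well recovered too, but far less so. *Chd4*, the main NuRD ATPase of most tissues, had 66.4 CPM and 450.7 CPM, a ratio of 6.79 (6.48 to 7.11). *Chd5*, known from neurons and from spermatids, where it acts in chromatin compaction, had 67.1 CPM and 532.0 CPM, a ratio of 7.92 (7.57 to 8.30). The interval of *Chd3* did not overlap those of *Chd4* and *Chd5*, which also did not overlap each other.

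*Chd1* and *Chd2* bind active genes. *Chd1*, whose chromodomains read methylated lysine 4 of histone H3, had 3.57 CPM before and 32.7 CPM after precipitation, a ratio of 9.17 (7.54 to 11.3). For its paralogue *Chd2* the levels were 4.94 and 25.9 CPM, a ratio of 5.24 (4.40 to 6.24), and the intervals did not overlap. *Chd1l* (ALC1), which poly(ADP-ribose) activates at DNA breaks, was placed with the CHD family here by its symbol. It was at the other end of this group, with 73.5 and 133.5 CPM, a ratio of 1.82 (1.73 to 1.91). Among the genes with *Chd* symbols, only *Chd1l* had an interval below 2. Its span overlaps *Fmo5*, and as the counting rule is not known, reads of overlapping genes may be shared.

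The subfamily of *Chd6* to *Chd9* split in its recovery. *Chd9* was at 4.58 CPM before and 54.6 CPM after precipitation, a ratio of 11.9 (10.1 to 14.3). *Chd7*, the gene of CHARGE syndrome, was at 2.20 and 19.8 CPM, a ratio of 9.0 (7.01 to 11.7) whose interval overlapped that of *Chd9*. Lower were *Chd6* and *Chd8*. *Chd6* had 3.99 and 14.8 CPM, a ratio of 3.70 (3.04 to 4.54). *Chd8*, a repressor of beta-catenin targets that is mutated in autism, had 29.6 and 84.1 CPM, a ratio of 2.84 (2.64 to 3.06). The intervals of *Chd6* and *Chd8* overlapped each other and neither of the intervals of *Chd9* and *Chd7*.

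In BAF and PBAF, the mammalian SWI/SNF complexes, both exchangeable ATPases were listed and the one known from differentiated cells had the higher ratio. *Smarca2* (BRM, ENSMUSG00000024921, chromosome 19 from 26605050 to 26778322) had 26.7 CPM before and 325.7 CPM after precipitation, a ratio of 12.2 (11.4 to 13.1). *Smarca4* (BRG1, ENSMUSG00000032187, chromosome 9 from 21616169 to 21704230), which is needed for meiosis in spermatocytes, had 54.0 and 314.7 CPM, a ratio of 5.83 (5.54 to 6.14). The ratio of *Smarca2* was 2.09 times that of *Smarca4*, with intervals apart.

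The subunits that tell the 3 forms of the complex apart were also recovered to different extents. *Arid2* (ENSMUSG00000033237, chromosome 15 from 96287518 to 96404992), the subunit that defines PBAF, had 36.3 CPM before and 891.7 CPM after precipitation, a ratio of 24.6 (23.2 to 26.1) and rank 28 of 4788. *Pbrm1*, the bromodomain subunit of PBAF, had 13.7 and 71.4 CPM, a ratio of 5.20 (4.69 to 5.77). PBAF subunits thus ranged widely, and so did those of canonical BAF. *Arid1a* had 19.7 and 167.6 CPM, a ratio of 8.49 (7.81 to 9.24). *Arid1b*, its exclusive alternative in the complex, had 9.27 and 33.4 CPM, a ratio of 3.60 (3.16 to 4.11). In non-canonical BAF, *Bicral* had 9.82 and 63.6 CPM, a ratio of 6.48 (5.75 to 7.33), and its paralogue *Bicra* 0.944 and 3.31 CPM, a ratio of 3.51 with a wide interval of 2.34 to 5.49 from 29 input reads.

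Of the scaffold, *Smarcc2* (BAF170) had 30.9 CPM before and 497.5 CPM after precipitation, a ratio of 16.1 (15.1 to 17.2). Its paralogue *Smarcc1* (BAF155) had 12.7 and 49.8 CPM, a ratio of 3.91 (3.51 to 4.37). The pair differed 4.12 times in ratio, close to the 4.21 times between *Chd3* and *Chd4*. Of the listed subunits of the complex, *Smarce1* and *Bcl7b* had the lowest ratios, and the interval of *Smarce1* overlapped that of *Bicra*. *Smarce1* (BAF57) had 8.14 and 19.3 CPM, a ratio of 2.37 (2.05 to 2.74), and *Bcl7b*, of the ATPase module, had 14.7 and 23.5 CPM, a ratio of 1.60 (1.43 to 1.80), the lowest of all members.

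The partners of the ISWI motors had the highest median log2 fold change of the accessory groups, 3.04 over 7 genes, level with the 3.04 of the 2 ATPases of BAF and PBAF. Of the 7, 6 lay in the upper quartile of all listed genes. These are large proteins with bromodomains or PHD fingers that direct SMARCA5 or SMARCA1 to nucleosomes. *Bptf* (ENSMUSG00000040481, chromosome 11 from 107033081 to 107132127), the largest subunit of NURF and a reader of methylated lysine 4 of histone H3, had 8.37 CPM before and 272.5 CPM after precipitation. Its ratio of 32.6 (28.8 to 37.0) was the highest of the 63 members, and it ranked 13 of 4788. *Rsf1*, which pairs with SMARCA5 in the RSF complex, had 3.01 and 33.0 CPM, a ratio of 10.9 (8.85 to 13.7). *Cecr2*, the partner in CERF that is known from testis and nervous system, had 9.24 and 83.5 CPM, a ratio of 9.03 (8.0 to 10.2).

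All 4 *Baz* genes were listed. *Baz2b* had 4.73 CPM before and 61.2 CPM after precipitation, a ratio of 12.9 (10.9 to 15.4), and *Baz2a* (TIP5), which silences ribosomal genes, 121.1 and 648.9 CPM, a ratio of 5.36 (5.17 to 5.55). *Baz1a* (ACF1), which is needed for male fertility in mice, had 27.8 and 138.5 CPM, a ratio of 4.98 (4.63 to 5.36). *Baz1b* (WSTF), the Williams syndrome gene, had 5.80 and 17.7 CPM, a ratio of 3.04 (2.58 to 3.61), the lowest of the group. In both pairs the intervals were apart. The motor itself, *Smarca5* (SNF2H), had 12.3 and 44.2 CPM, a ratio of 3.61 (3.23 to 4.05), below those of all its listed partners other than *Baz1b*. The reference also holds a pseudogene of *Smarca5*, and whether reads were split with it is not known.

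NuRD's non-catalytic subunits were recovered less than its motors. *Mta1*, a scaffold that holds the deacetylases, had 26.7 CPM before and 143.8 CPM after precipitation, a ratio of 5.38 (4.99 to 5.79). The paralogues *Gatad2a* and *Gatad2b*, which bridge the motor to the rest, had overlapping intervals. *Gatad2a* had 55.4 and 135.0 CPM, a ratio of 2.44 (2.31 to 2.58). For *Gatad2b*, 18.6 and 43.8 CPM gave 2.36 (2.14 to 2.60). The median log2 fold change of the 3 subunits was 1.27, and with *Chd3*, *Chd4* and *Chd5* the 6 listed NuRD genes had a median of 2.56.

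In the INO80/SWR group the motors stood above most of their subunits. *Ino80* had 6.74 CPM before and 44.4 CPM after precipitation, a ratio of 6.59 (5.70 to 7.65). *Srcap*, which loads the histone variant H2A.Z, had 31.8 and 171.3 CPM, a ratio of 5.39 (5.04 to 5.77). *Ep400* (ENSMUSG00000029505, chromosome 5 from 110664373 to 110770717), the motor of the TIP60/p400 complex, rested on 14811 input reads, the most of any member. Its 480.1 and 1434 CPM gave a ratio of 2.99 (2.93 to 3.04), the lowest of the 3 motors.

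Their subunits had a median log2 fold change of 0.97, the lowest of the accessory groups, and 0 of the 5 lay in the upper quartile of all listed genes. *Ino80d* led with 5.77 CPM before and 25.9 CPM after precipitation, a ratio of 4.48 (3.81 to 5.29). *Trrap*, the giant scaffold of the TIP60 and SAGA acetyltransferase complexes, had 58.0 and 162.2 CPM, a ratio of 2.80 (2.65 to 2.95), and its interval overlapped that of *Ep400*. The 3 others had ratios near or below 2. *Ino80c* had 23.4 and 46.6 CPM, a ratio of 1.99 (1.83 to 2.18), and the nuclear actin-related gene *Actr8* 24.9 and 42.5 CPM, a ratio of 1.70 (1.56 to 1.86). *Mbtd1*, a TIP60 subunit that reads methylated histone H4, had 43.1 and 71.5 CPM, a ratio of 1.66 (1.55 to 1.77).

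**Figure D5:**
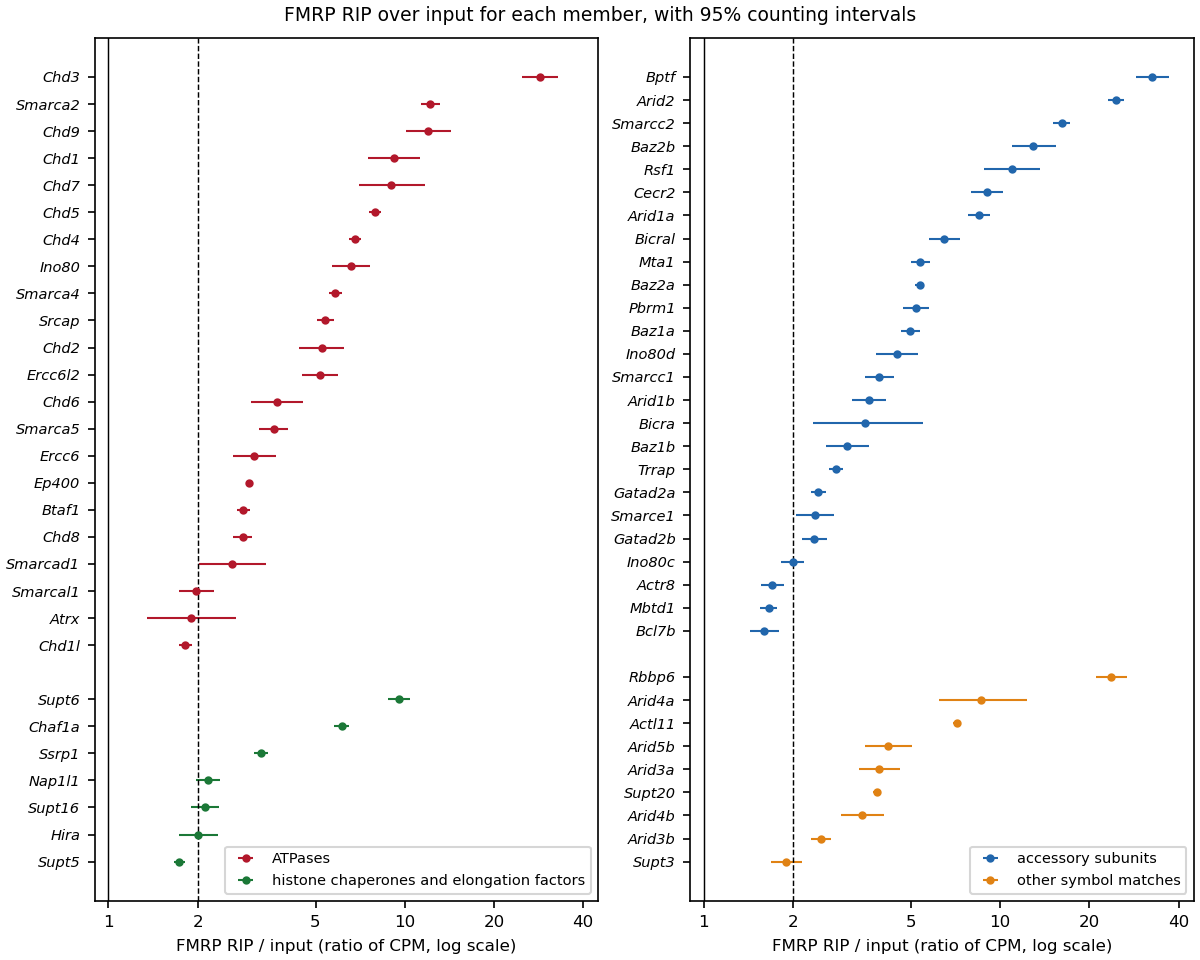
Points are the ratios of CPM in the FMRP RIP over the input for all 63 members on a log scale, bars are exact Clopper-Pearson 95% intervals of counting error, the solid line marks equal levels and the dashed line a ratio of 2. *Chd3* (28.6) among ATPases and *Bptf* (32.6) and *Arid2* (24.6) among accessory subunits stand apart at the top, and *Bicra* and *Atrx* have wide intervals.

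The remaining ATPases act in repair, replication and transcription. *Ercc6l2* had 7.36 CPM before and 38.0 CPM after precipitation, a ratio of 5.16 (4.48 to 5.97), the highest of these. *Ercc6* (CSB), which rescues RNA polymerase stalled at damage, had 5.88 and 18.3 CPM, a ratio of 3.11 (2.63 to 3.67). *Btaf1*, which strips TBP from DNA, had 69.9 and 199.4 CPM, a ratio of 2.85 (2.72 to 2.99). The others lay around 2. *Smarcad1* had 2.59 and 6.77 CPM, a ratio of 2.61 (2.02 to 3.40), and *Smarcal1*, an annealing helicase of stalled forks, 9.92 and 19.6 CPM, a ratio of 1.98 (1.73 to 2.27). *Atrx*, which deposits histone variant H3 with DAXX at repeats, had 1.62 and 3.07 CPM, a ratio of 1.89 (1.34 to 2.70) on 50 input reads, and with a log2 fold change of 0.63 it ranked 4557 of 4788.

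Histone chaperones and elongation factors, which have no remodelling motor, had the lowest median log2 fold change of the roles, 1.08. Of the 7, 2 (28.6%) lay in the upper quartile of all listed genes, where 25.0% lie by definition. *Supt6*, the chaperone that travels with RNA polymerase II, had 18.0 CPM before and 171.7 CPM after precipitation, a ratio of 9.56 (8.77 to 10.5). *Chaf1a*, the large subunit of CAF-1, had 39.7 and 243.5 CPM, a ratio of 6.13 (5.77 to 6.51). Both spans overlap another protein-coding gene, *Sdf2* and *Ubxn6*. *Supt5*, the DSIF subunit, was at the bottom with 98.5 and 170.9 CPM, a ratio of 1.73 (1.66 to 1.81).

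Both subunits of FACT, a chaperone dimer, differed. *Ssrp1* had 52.6 CPM before and 172.1 CPM after precipitation, a ratio of 3.27 (3.10 to 3.46), and *Supt16* 16.0 and 34.0 CPM, a ratio of 2.12 (1.91 to 2.35), with intervals apart. *Supt16* overlaps the listed gene *Rpgrip1*. The nucleosome assembly gene *Nap1l1*, the only one of 5 *Nap1l* genes in the table, had 19.2 and 41.6 CPM, a ratio of 2.17 (1.97 to 2.39). *Hira*, which deposits a variant of histone H3 outside replication, had 7.75 and 15.6 CPM, a ratio of 2.01 (1.73 to 2.35).

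The symbols also brought in 9 genes outside the remodellers and chaperones, with a median log2 fold change of 1.85. The highest was *Rbbp6*, a ubiquitin ligase of mRNA 3' end processing, with 9.27 CPM before and 219.7 CPM after precipitation, a ratio of 23.7 (21.1 to 26.8) and rank 38. The lowest was *Supt3*, a subunit of SAGA that overlaps the listed gene *Runx2*, with 12.6 and 24.0 CPM, a ratio of 1.90 (1.68 to 2.15). *Actl11*, the only listed one of 7 actin-like *Actl* genes, had 133.5 and 956.7 CPM, a ratio of 7.16 (6.94 to 7.40), and its span of 3.99 kb was the shortest of the members. The other 6, *Arid4a*, *Supt20*, *Arid5b*, *Arid3a*, *Arid4b* and *Arid3b*, had log2 fold changes between 1.28 and 2.41.

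Gaps between paralogues given above exceed counting error where the intervals are apart. As no replicate was sequenced, they were not tested against the spread between samples. Between input level and log2 fold change, rho was -0.06 over the 63 members and 0.25 over all 4788 listed genes, a description in which the input enters both measures. The spans of 10 members overlap another protein-coding gene, and the other 53 had a median log2 fold change of 1.89.

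Other lists held genes that share complexes or tasks with the members, but not their symbols. Of 32 further subunits of remodelling complexes 11 were listed (34.4%), beside 62.4% of the members and 21.3% of all protein-coding genes of the reference. Their median log2 fold change was 1.22, below the 1.35 of all listed genes, and 9 lay above 1 (81.8%, beside 70.1% of all listed genes). They ranged from *Phf10*, a PBAF subunit, at 0.78 to *Adnp*, a partner of CHD4, at 3.82, the latter from 5.21 CPM before to 86.9 CPM after precipitation. Of 18 further histone chaperones 10 were listed (55.6%), with a median of 1.61, from 0.59 for *Npm2* to 2.64 for *Ubn2*, a partner of HIRA.

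Lists of modifying enzymes and of cohesin, condensin and SMC genes had medians close to that of the members. Of 91 histone and DNA modifying enzymes 48 were listed (52.7%), beside 21.3% of all protein-coding genes of the reference. Their median log2 fold change was 1.80. Above 1 were 42 of them (87.5%), beside 70.1% of all listed genes. The highest was the acetyltransferase *Kat6a* at 3.95, and the lowest the DNA methyltransferase *Dnmt3b* at 0.50. Of 24 cohesin, condensin and SMC genes 17 were listed (70.8%), with a median of 1.90 and 16 above 1 (94.1%). They ranged from the meiotic cohesin subunit *Stag3* at 0.85 to the meiotic *Smc1b* at 4.04. The share listed and the median of the remodelling members, 62.4% and 1.89, thus lay between those of the lists in this paragraph. They lay above the 34.4% and 1.22 of the further subunits and the 55.6% and 1.61 of the further chaperones. No test between the lists was made.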

How the data were processed

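Adult wild-type mouse testis gave 1 input library and 1 FMRP RIP library. Per the labels, the authors aligned reads with STAR to GRCm38 (mm10); the counting tool is not given in the sources used here. The authors deposited CPM values, that is, reads on a gene scaled to a common library size, for 4788 protein-coding genes that they had called higher in the FMRP RIP. Their fold changes, p-values, adjusted p-values and the marks derived from them, made with edgeR, were not used. CPM came in steps of 0.01 read, which gave totals of 30849871 (input) and 36506932 (FMRP RIP) reads. Within 0.005 read, 78.4% and 78.8% of values above 0 were whole, so no count test was run.

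From these values, log2((FMRP RIP + 1)/(Input + 1)) was computed with a pseudocount of 1 CPM, and ratios of CPM were given exact Clopper-Pearson intervals (95%) from rounded reads. No test between conditions was possible with 1 library per group. Members, roles and gene lists were chosen with earlier results of these data known. Every listed ATPase, accessory subunit and chaperone is named, together with the highest and lowest and the actin-like gene of the other matches and the highest and lowest gene of each comparison list. Symbols were matched to RefSeq GRCm38.p6 by name, or by synonym where only 1 gene had it. Alternatives were pseudocounts of 5, 0.125 and 0 CPM, a minimum of 1 CPM, scaling to reads outside the listed genes, narrower classes and, chosen after seeing the data, leaving out overlapping genes. The functions were tested on simulated data. Scripts ran in Python 3.11.15 (scipy 1.17.1, pandas 2.3.3, numpy 2.4.6), with figures drawn by matplotlib 3.10.9.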

Additional observations from a re-analysis of the deposited data

How the results depend on the processing

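Of the 63 members, 48 had a log2 fold change above 1 with a pseudocount of 5 CPM. With scaling to reads of all other genes, which raises every listed gene, 63 had. Without overlapping genes it was 46 of the 53 remaining members. These counts lay within 1.5 times of 53, the count with the main settings. With a pseudocount of 5 CPM the median log2 fold change was 1.57 for all members, 1.71 for ATPases and 1.63 for accessory subunits. Scaling to the other reads multiplies each FMRP RIP value by 1.92 and gave 2.81 for all members, 3.12 for ATPases, 2.90 for accessory subunits and 2.0 for the chaperone class. Over ATPases and accessory subunits alone the median was 2.18. The difference between the medians of ATPases and accessory subunits kept its sign in each of 8 alternatives, the lowest 0.07 with a minimum of 1 CPM. Among these are other comparisons, ATPases against all other members (0.35) and motors of complexes against accessory subunits (0.55, the highest). Summed reads are not among them, and there accessory subunits had the higher ratio, 6.33 against 4.29 for ATPases. Single members had 367 values under the alternatives. Of these, 115 lay further from the main value than the gene's counting interval reaches from its ratio in log2. With scaling to the other reads there were 63 of them, and with a pseudocount of 5 CPM 43. No direction turned, but the genes had been selected as higher and no alternative scaled the FMRP RIP down relative to the input. No paired analysis was possible because both groups consist of a single library. Depth limits genes low in the input: *Bicra* rests on 29 input reads.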
